A study of Sus scrofa with 15 samples.

Results

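The HOX genes of the 4 mammalian HOX clusters were followed from cultured pig fetal fibroblasts (PFF) into the cloned embryos made from their nuclei. Every gene of the deposited expression table whose symbol is HOXA, HOXB, HOXC or HOXD followed by a number was taken, which gave 36 genes of 28224 known genes and 43294 features in all. They are 11 HOXA genes on chromosome 18, 8 HOXB genes on chromosome 12, 9 HOXC genes on chromosome 5 and 8 HOXD genes on chromosome 15. The RNA-seq libraries fall into 5 groups of 3, namely the donor cells and 4 groups of embryos from somatic cell nuclear transfer (SCNT). PFF were untreated primary cells of passage 2 to 5. SCNT4c and SCNT8c were untreated cloned embryos at the 4-cell and the 8-cell stage. SCNT4c-KG were 4-cell embryos injected with 1000 ng per µl of mRNA for KDM4A, a histone H3K9 demethylase, at 5 h after activation, and cultured until 48 h with 0.1 µM GSK126, an inhibitor of EZH2. SCNT4c-TDG were 4-cell embryos from PFF that carried a doxycycline-inducible vector for TDG, a DNA glycosylase of DNA demethylation, and they received 500 ng per ml of doxycycline from 40 to 72 h. Each embryo library was made from a pool of 30 embryos. EZH2 inhibition without KDM4A was not analysed here, so the contributions of the 2 agents cannot be told apart in SCNT4c-KG. PFF carrying the TDG vector were not analysed here either.

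HOX genes code for homeodomain transcription factors that give cells their position along the head-to-tail axis and in the limbs. Within a cluster their order on the chromosome follows the order of their domains in the body, from the low paralogue numbers of the head and neck to the high numbers of the hind body, digits and genitalia. Fibroblasts keep a HOX pattern of the site they came from, and the silent members of each cluster are classical targets of Polycomb repression, in which EZH2 writes H3K27me3 and PRC1 complexes read it. Cleaving embryos precede the time at which HOX clusters open in sequence.

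The homeoboxes of HOXC13 and HOXA13 are shown because these genes had some of the highest HOX levels in the embryos and share a paralogue number. The homeobox codes for the DNA-binding homeodomain and lies in a coding exon of every member. Both sequences are given 5′ to 3′ from the Sscrofa11.1 genome of NCBI, and capitals mark the bases of HOXA13 that differ from HOXC13. HOXC13 is on the plus strand at chr5:19157430-19157609 and HOXA13 on the plus strand at chr18:45375121-45375300.
HOXC13: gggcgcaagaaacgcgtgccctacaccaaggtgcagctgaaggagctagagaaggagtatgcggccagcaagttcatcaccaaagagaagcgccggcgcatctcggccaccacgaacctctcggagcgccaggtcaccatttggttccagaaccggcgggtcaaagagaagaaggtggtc
HOXA13: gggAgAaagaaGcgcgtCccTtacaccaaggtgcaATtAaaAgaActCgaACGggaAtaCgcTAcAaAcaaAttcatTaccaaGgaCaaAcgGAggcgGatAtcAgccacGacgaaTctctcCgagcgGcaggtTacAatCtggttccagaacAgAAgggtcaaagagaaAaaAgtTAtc
The pair differed at 44 of these 180 bases (75.6% identity). Over all 36 members, homeobox identity lay between 47.8% and 93.9%, and its median was 80% for 34 pairs with the same paralogue number and 61.1% for the other 596 pairs. The longest run of bases that 2 members with separate exons share was 90 bases, between HOXA6 and HOXA7, against reads of 150 bases, and 22 of 630 pairs shared at least 30 bases. A stretch of 250 bases before the annotated start held 10 or more CG pairs (motif CG, the same on both strands) in 24 of the 36 members, 66.7%, and in 56.6% of 19558 protein-coding genes.

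Values are reads per gene divided by 1 factor for each library, called the normalized value here, and levels of different genes were ranked per kb of annotated exon. Libraries held 22224949 to 22868038 recovered reads in PFF, 20460653 to 22530486 in SCNT4c, 12354649 to 15390472 in SCNT4c-KG, 17757929 to 19564459 in SCNT4c-TDG and 18083559 to 19549670 in SCNT8c. KDM4A stood at 1429 to 1476 in SCNT4c-KG and at 134 to 313 in SCNT4c, and TDG at 49857 to 59944 in SCNT4c-TDG and at 939 to 2541 in SCNT4c. KDM4A was also above SCNT4c in SCNT4c-TDG (555 to 918), and TDG in SCNT4c-KG (3886 to 4738), and no value here shows the action of GSK126. Of 12 fibroblast markers, 11 reached a mean of 10 in PFF and PDGFRA was listed at 0, and the summed markers of each embryo library were 0.0417% to 0.146% of the PFF mean, a sum set largely by the collagens. Of 10 oocyte and maternal markers, 6 reached that mean in each embryo group. The labels number the SCNT4c libraries in conflicting ways, and letters a, b and c stand for them here. The description fields of the SCNT4c-KG samples also hold the names of the untreated columns of the table, and the columns were assigned by their own names, in which the treated ones carry KG. In SCNT4c the HOX genes summed to 1364 in library a against 692 and 309 in libraries b and c, and SCNT8c replicate 3 held reads of the fewest members among the untreated embryos, so results that turn on these libraries are also given without them.

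The fibroblasts carried a HOX pattern centred on the middle of the clusters. The levels per kb summed to 73.4% in HOXC and 21.98% in HOXA, and only 3.11% in HOXB and 1.54% in HOXD. The 13 members with paralogue numbers 4 to 8 held 83.0% of the sum per kb, the 15 members with numbers 9 to 13 held 15.3%, and the 8 members with numbers 1 to 3 held 1.74%. In the usual HOX order, numbers 4 to 8 belong to the neck and trunk.

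HOXC8, a trunk gene of the thoracic region, led the pattern with 3317, 2942 and 3272 in the 3 PFF libraries. Its level of 1445 ± 93.0 per kb (SD, n = 3) stood apart from the rest. HOXC9 followed at 313 ± 35.2 per kb, HOXA7 at 280 ± 30.8 and HOXC6 at 243 ± 31.9 (SD, n = 3), and the libraries of HOXA7 overlapped those of both its neighbours in this order. HOXA5, which acts in the lung and the neck region, followed at 180 ± 15.1 per kb, HOXC5 at 117 ± 14.4 and HOXA6 at 98.3 ± 17.1 (SD, n = 3).

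The HOXB and HOXD clusters had low sums, although some of their members lay in the middle of the range per kb. The highest HOXB members per kb were HOXB7 (56.2, 24.2 and 42.9), HOXB6 (36.6, 54.8 and 76.3) and HOXB8 (37.9, 31.8 and 36.9, all normalized values). In HOXD they were HOXD3 (66.0, 61.1 and 44.1), HOXD8 (66.0, 71.3 and 59.6) and HOXD13 (34.2, 56.0 and 26.2). These members were far below HOXC8 in every PFF library. At least 3 reads were found in all 3 PFF libraries for 28 members and in no PFF library for 7, namely HOXA9, HOXB1, HOXB13, HOXC12, HOXD1, HOXD11 and HOXD12. HOXC13 and HOXA13, the last genes of their clusters, stood at 55, 73.9 and 48.9 and at 48.9, 71.3 and 33.4.

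**Figure D1:**
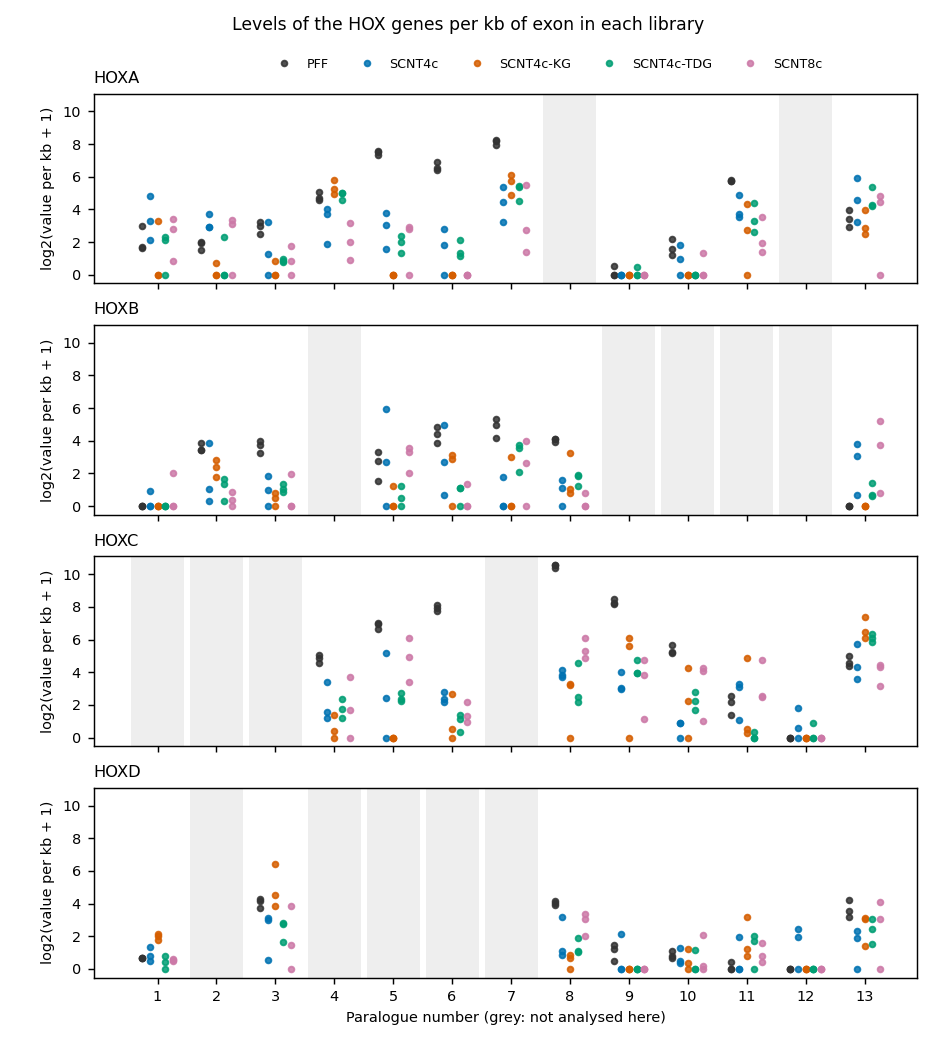
Each point is 1 library, drawn as log2(value per kb of exon + 1) against the paralogue number within each cluster, with grey columns for numbers not analysed here. The PFF points peak at HOXC8 and stand above the embryo points from HOXA5 to HOXA7 and from HOXC4 to HOXC9, while at HOXC13 the SCNT4c-KG and SCNT4c-TDG points stand above them.

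In the embryos the summed HOX value was lower, and the members that made it up were not those of the donor pattern alone. The 36 members summed to 7425, 7369 and 7863 in PFF, 1364, 692 and 309 in SCNT4c, 1152, 863 and 513 in SCNT4c-KG, 564, 624 and 658 in SCNT4c-TDG, and 722, 942 and 380 in SCNT8c. Every embryo library thus lay below every PFF library, and the embryo groups overlapped each other. Relative to the PFF mean, the summed HOX value of the embryo libraries was 4.09% to 18.1% (median 8.94%), and that of the fibroblast markers 0.0417% to 0.146% (median 0.0671%). These percentages depend on the scaling, and with every library set to the same total they were 6.14% to 28.2% (median 15.5%) for the HOX genes and 0.0777% to 0.229% (median 0.113%) for the markers. On the deposited scale, the marker sum in PFF was carried by the collagens COL1A1 (41.3% of it) and COL1A2 (33.6%), and single markers stood higher. TWIST1 was at 17.8% of its PFF mean in SCNT4c, 3.93% in SCNT4c-KG, 3.56% in SCNT4c-TDG and 13.1% in SCNT8c, and DCN at 14.1% in SCNT4c. Of these, the shares in SCNT4c and SCNT8c lay within the range of the HOX sums, and the median over the 11 markers was 0.0366% to 0.210% in the embryo groups. The part of fibroblast RNA in the HOX values was not tested. The HOX sum includes members whose embryo mean was above PFF, 12 of 36 in SCNT4c, 6 in SCNT4c-KG, 6 in SCNT4c-TDG and 9 in SCNT8c, whereas HOXC8 alone stood at 0.971%, 0.388%, 0.708% and 3.10% of its PFF mean in these groups, and at 1.498%, 0.544%, 1.32% and 5.07% with the same total. In bulk pools, fewer cells with a transcript and less transcript in each cell cannot be told apart.

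**Figure D2:**
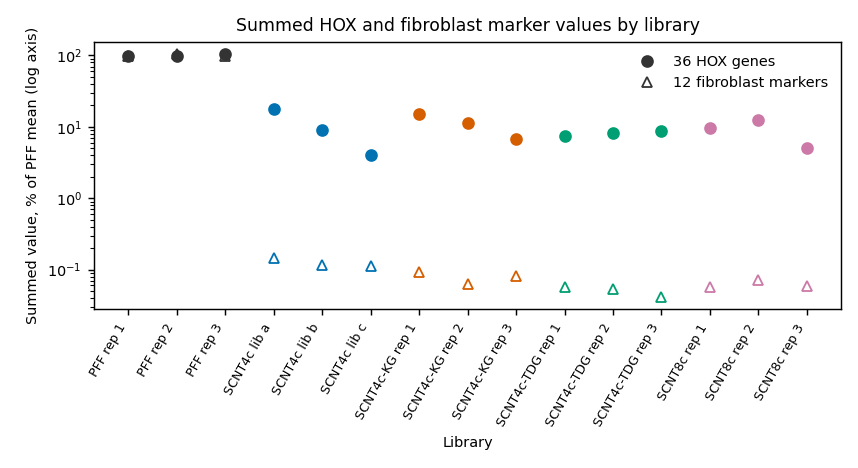
The summed normalized value of the 36 HOX genes (filled points) and of 12 fibroblast markers (open triangles) in each library, as a percent of the PFF mean on a log axis. The HOX sums of the embryo libraries lie between 4.09% and 18.1%, and the marker sums, which COL1A1 and COL1A2 dominate, between 0.0417% and 0.146% on the deposited scale, which is the one plotted, and between 6.14% and 28.2% and between 0.0777% and 0.229% with every library set to the same total.

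Which members left reads varied from pool to pool. At least 3 reads were found for 29, 29 and 28 members in PFF, 27, 28 and 21 in SCNT4c, 20, 14 and 12 in SCNT4c-KG, 23, 23 and 26 in SCNT4c-TDG, and 20, 25 and 15 in SCNT8c. The median was lowest in SCNT4c-KG, whose libraries were also the shallowest of the series. Among known genes, 46.0% to 50.4% had at least 3 reads in SCNT4c-KG and 52.3% to 54.8% in SCNT4c, and how far depth sets the member counts was not tested. All 36 members reached 3 reads in at least 1 embryo library, but only HOXC13 did so in all 12. Members listed at 0 in all 3 libraries of a group numbered 10 in SCNT4c-KG, 4 in SCNT4c-TDG, 5 in SCNT8c and 1 in SCNT4c. Reads of low genes partly came in pairs, since 57.3% to 67.0% of low counts were even against 49.4% to 53.6% of counts above 1000, so 3 reads can stand for fewer fragments.

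**Figure D3:**
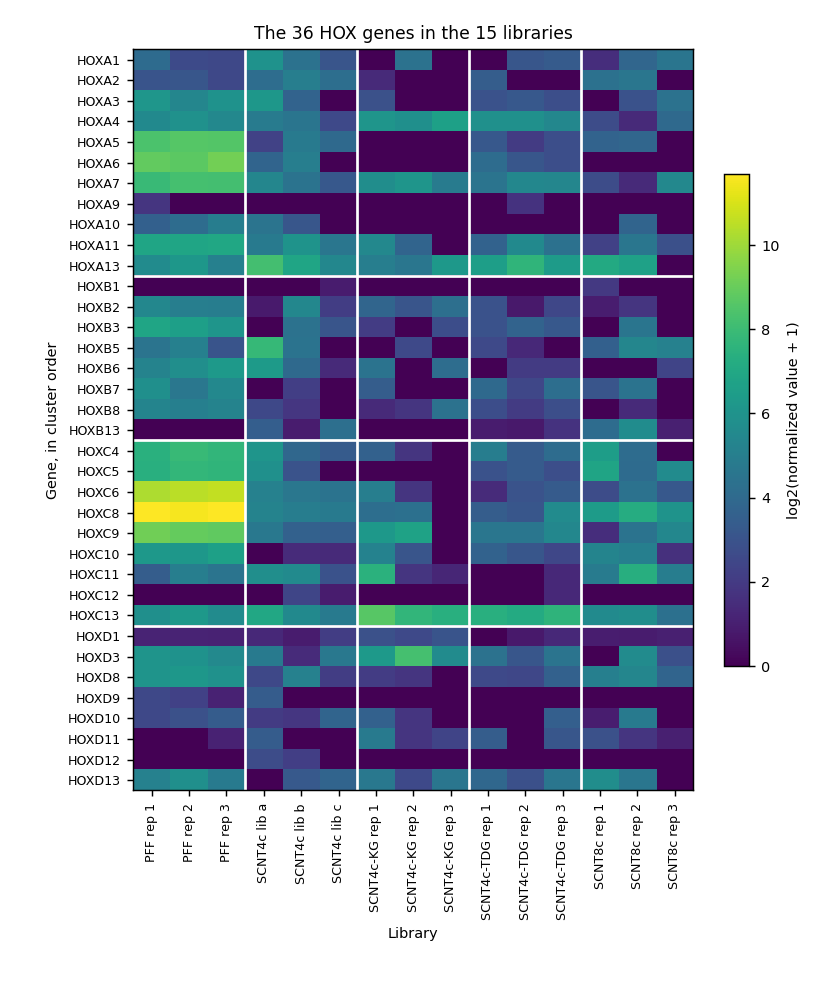
Normalized values of the 36 HOX genes, as log2(value + 1), in the 15 libraries, with genes in cluster order and white lines between clusters and groups. The PFF columns resemble each other, whereas members such as HOXB5, HOXC11 and HOXD3 differ widely between libraries of 1 embryo group.

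Members with numbers 4 to 8 and with numbers 9 to 13 both summed to less per kb than in PFF, and the former were lower by more, while numbers 1 to 3 were low in PFF too. The sum of numbers 4 to 8 was 2503 per kb in PFF, 119 in SCNT4c, 109.6 in SCNT4c-KG, 99.9 in SCNT4c-TDG and 134 in SCNT8c, and that of numbers 9 to 13 was 461, 107, 187, 136 and 100.9 in the same order. In SCNT4c, library a carried much of the sum of numbers 4 to 8, with HOXB5 at 224 there and at 21.0 and 0 in libraries b and c. Their share in SCNT4c was 45.1%, and 38.8% without library a. Numbers 1 to 3 summed to 52.5 per kb in PFF, 37.1 in SCNT4c, 51.1 in SCNT4c-KG, 12.03 in SCNT4c-TDG and 19.9 in SCNT8c, and with every library set to the same total SCNT4c (40.3) and SCNT4c-KG (51.3) stood above PFF (36.8). Their share of the sum was 1.74% in PFF, 14.1% in SCNT4c, 14.7% in SCNT4c-KG (8.27% without replicate 2), 4.86% in SCNT4c-TDG and 7.81% in SCNT8c. Members with numbers 9 to 13 made up 40.8% of the sum per kb in SCNT4c, 53.8% in SCNT4c-KG, 54.8% in SCNT4c-TDG and 39.5% in SCNT8c, against 15.3% in PFF, and with any 1 library left out the embryo groups stayed between 32.7% and 58.9%. The highest level per kb was HOXA13 in SCNT4c (30.2), HOXC13 in SCNT4c-KG (107) and SCNT4c-TDG (68.6), and HOXC8 in SCNT8c (44.8). Without SCNT4c library a, HOXA13 stood at 15.7 per kb in SCNT4c and HOXA11 was highest (19.2), and without SCNT8c replicate 1 or 2 the SCNT8c levels of HOXC8 were 48.1 and 33.5, the latter below HOXC5 (49.3). HOXA7 stood at 23.2, 49.4, 34.4 and 16.9 per kb in the same order of groups, but at 14.7 in SCNT4c without library a and at 3.64 in SCNT8c without replicate 3. Across the 36 members, Spearman's rho of the mean levels per kb with PFF was 0.47 in SCNT4c, 0.46 in SCNT4c-KG, 0.74 in SCNT4c-TDG and 0.46 in SCNT8c. These are correlations across genes, which are not independent replicates, and the same PFF libraries enter each.

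The embryo groups were compared with PFF to ask which members of the donor pattern fell. The test was limma on log2(value + 1) over features whose mean reached 10, and a call required both an adjusted p below 0.05 and more than a 2-fold difference. In SCNT4c, 15 of 27 members tested were lower and 1 was higher, where 38.5% of all features were called lower and 39.7% higher. In SCNT8c, 14 of 28 were lower and 1 was higher, against 36.8% lower and 33.7% higher. In SCNT4c-KG the numbers were 16 of 24 lower and 1 higher, against 37.1% and 39.8%. In SCNT4c-TDG they were 21 of 24 lower and 2 higher, against 40.3% and 39.3%. Most members passed the filter on low values through their PFF level, so these counts describe the tested members alone. Over all 36 members and with no filter, the group mean was below that of PFF for 24 members in SCNT4c, 26 in SCNT4c-KG, 28 in SCNT4c-TDG and 25 in SCNT8c.

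The median log2 fold change of the tested members was -2.80 in SCNT4c, -2.99 in SCNT8c, -3.70 in SCNT4c-KG and -3.09 in SCNT4c-TDG, and that of all features was 0.07, -0.15, 0.12 and -0.12. The filter on low values largely fixes the sign of the members' medians, so nothing is read from them. With every library set to the same total, the median of all features became 0.86, 0.71, 0.78 and 1.07, and the members called lower numbered 14, 12, 11 and 16. Because of this shift, a member near 0 on the deposited scale has no fixed sign. The split of higher against lower members was 3 to 10 with edgeR and 3 to 11 with DESeq2 in SCNT4c, 2 to 10 with DESeq2 in SCNT8c, and 3 to 13 with DESeq2 in SCNT4c-KG.

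HOXC8 and HOXC6 were called lower in every embryo group. HOXC8 stood at 36.3, 29.7 and 26.6 in SCNT4c, 18.0, 19.0 and 0 in SCNT4c-KG, 10, 7.67 and 49.7 in SCNT4c-TDG, and 84.0, 148 and 63.4 in SCNT8c, all far below the lowest PFF library (2942). On the log2 scale the change was -6.65 ± 0.19 (SE; limma adjusted p = 1.0e-06) in SCNT4c, -8.78 ± 1.19 (7.1e-04) in SCNT4c-KG, -7.55 ± 0.63 (2.7e-05) in SCNT4c-TDG and -5.09 ± 0.37 (6.9e-05) in SCNT8c. HOXC6, which patterns the upper thorax and the forelimb level, fell from 1224, 1416 and 1595 to 20.8 to 33.9 in SCNT4c, 0 to 31.0 in SCNT4c-KG, 1.67 to 9.18 in SCNT4c-TDG and 5.60 to 20 in SCNT8c. No embryo library came near PFF, and the log2 changes were -5.73, -8.18, -7.87 and -7.01 in that order. HOXC9 fell from 566, 483 and 458 to 24.5, 11.4 and 10.8 in SCNT4c (log2 -5.02), to 23.4, 23.0 and 41.3 in SCNT4c-TDG (-4.10), and to 1.87, 20.8 and 42.3 in SCNT8c (-5.17). In SCNT4c-KG, HOXC9 stood at 75.1, 107 and 0, which did not pass (log2 -4.64, limma adjusted p = 0.053). Small stretches of the exons of HOXC6 (3.66%), HOXC8 (4.23%) and HOXC9 (3.18%) overlap genes on the other strand, and the strand setting of the counting is not given in the sources used here.

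HOXC5 stood at uneven levels in the embryo groups. From 165, 210 and 198 in PFF it went to 56.8, 6.99 and 0 in SCNT4c, to 0 in all 3 SCNT4c-KG libraries, to 6.69, 9.21 and 6.12 in SCNT4c-TDG and to 112, 15.8 and 48.6 in SCNT8c. It was called lower than PFF in each group, with fitted log2 changes of -4.63, -7.58, -4.54 and -2.07. The call was lost in 7 of 15 alternatives in SCNT4c (highest limma, edgeR or DESeq2 adjusted p = 0.083), among them those without PFF replicate 1, 2 or 3 or SCNT4c library b, and in 8 of 16 in SCNT8c (0.21), among them those without PFF replicate 1, 2 or 3 or SCNT8c replicate 3. Against 0 reads in SCNT4c-KG, with 3 reads over the group as the floor, HOXC5 was at least 132-fold lower than in PFF, and at least 91.5-fold with every library set to the same total.

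In HOXA, HOXA5, HOXA6, HOXA7 and HOXA11 were called lower in every embryo group, and HOXA13 in none. HOXA5 went from 329, 387 and 373 in PFF to 3.94, 26.2 and 14.9 in SCNT4c, 0, 0 and 0 in SCNT4c-KG, 8.36, 3.07 and 6.12 in SCNT4c-TDG, and 12.1, 13.3 and 0 in SCNT8c. HOXA6 went from 472, 428 and 595 to 12.6, 30.6 and 0 in SCNT4c and to 16.7, 7.67 and 6.12 in SCNT4c-TDG, and was at 0 in all libraries of SCNT4c-KG and SCNT8c. The groups did not overlap PFF for either gene, and both were called lower in every embryo group. In SCNT4c-KG, HOXA5 was at least 252-fold and HOXA6 at least 345-fold lower than in PFF, and HOXA6 in SCNT8c at least 530-fold, bounds that became 174, 239 and 333 with every library set to the same total. HOXA5 shares 12.7% of its exon length with HOXA6 on the same strand, and HOXA6 shares 6.67% of its own with HOXA5 and HOXA3, so reads there cannot be assigned to 1 gene. HOXA11, a limb and uterus gene, went from 115, 117 and 124 in PFF to 26.8, 62.9 and 23.2 in SCNT4c, 42.5, 12.7 and 0 in SCNT4c-KG, 11.7, 45.3 and 19.9 in SCNT4c-TDG and 3.73, 23.3 and 6.34 in SCNT8c. All embryo libraries lay below PFF, with log2 changes of -1.77, -3.83, -2.37 and -3.66, and the call was lost in SCNT4c with edgeR or DESeq2 (adjusted p = 0.12 and 0.11) and in SCNT4c-KG without PFF replicate 1, 2 or 3 (0.094 to 0.10) or SCNT4c-KG replicate 2 (0.073).

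HOXA7 was called lower than PFF in each group as well. It stood at 244, 302 and 292 in PFF, 40.2, 21.0 and 8.30 in SCNT4c, 52.3, 67.3 and 28.5 in SCNT4c-KG, 21.7, 41.4 and 39.8 in SCNT4c-TDG, and 5.60, 1.66 and 43.3 in SCNT8c. Its mean was 17.7% of the PFF mean in SCNT4c-KG and 8.29% in SCNT4c (25.3% and 12.9% with every library set to the same total), and it was called lower than PFF in both, with log2 changes of -2.55 ± 0.36 and -3.78 ± 0.55 (SE; limma adjusted p = 8.1e-04 and 8.6e-04). The SCNT4c-KG and SCNT4c libraries overlapped, and their difference did not pass (log2 1.22, limma adjusted p = 0.34).

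HOXB8 went from 31.8 to 37.9 in PFF to 0 to 4.73 in SCNT4c, 1.63 to 19.9 in SCNT4c-KG, 3.07 to 6.12 in SCNT4c-TDG and 0 to 1.66 in SCNT8c, and it was called lower in each group. In SCNT4c-KG that call was lost in 8 of 15 alternatives (highest adjusted p = 0.11), among them those without PFF replicate 1, 2 or 3 or SCNT4c-KG replicate 1 or 2. HOXB7 was called lower in SCNT4c, SCNT4c-KG and SCNT4c-TDG, and HOXB6 in SCNT4c-TDG and SCNT8c, where the HOXB7 call in SCNT4c-TDG was lost in 5 of 15 alternatives (highest adjusted p = 0.18). HOXB5 stood at 22, 33.1 and 7.15 in PFF and at 224, 21.0 and 0 in SCNT4c, and library a alone lay above PFF (log2 -0.12, limma adjusted p = 0.95). It was at 11.2, 39.9 and 33.8 in SCNT8c, which overlaps PFF, and was called lower in SCNT4c-KG (0, 5.08 and 0) and SCNT4c-TDG (5.02, 1.53 and 0), the former lost in 3 of 12 alternatives (highest adjusted p = 0.056). HOXD8 was called lower in SCNT4c, SCNT4c-KG and SCNT4c-TDG, with log2 changes of -2.80, -4.75 and -3.15, and in SCNT4c the call was lost in 6 of 14 alternatives (highest adjusted p = 0.16), among them those without PFF replicate 1 or 2 or SCNT4c library a or c. HOXD13, a digit and genital gene, was called lower in SCNT4c (0, 8.74 and 12.5) and SCNT4c-TDG (14.2, 6.14 and 23.0), but the calls were lost in 8 of 14 and 9 of 15 alternatives (highest adjusted p = 0.20 and 0.37).

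**Figure D4:**
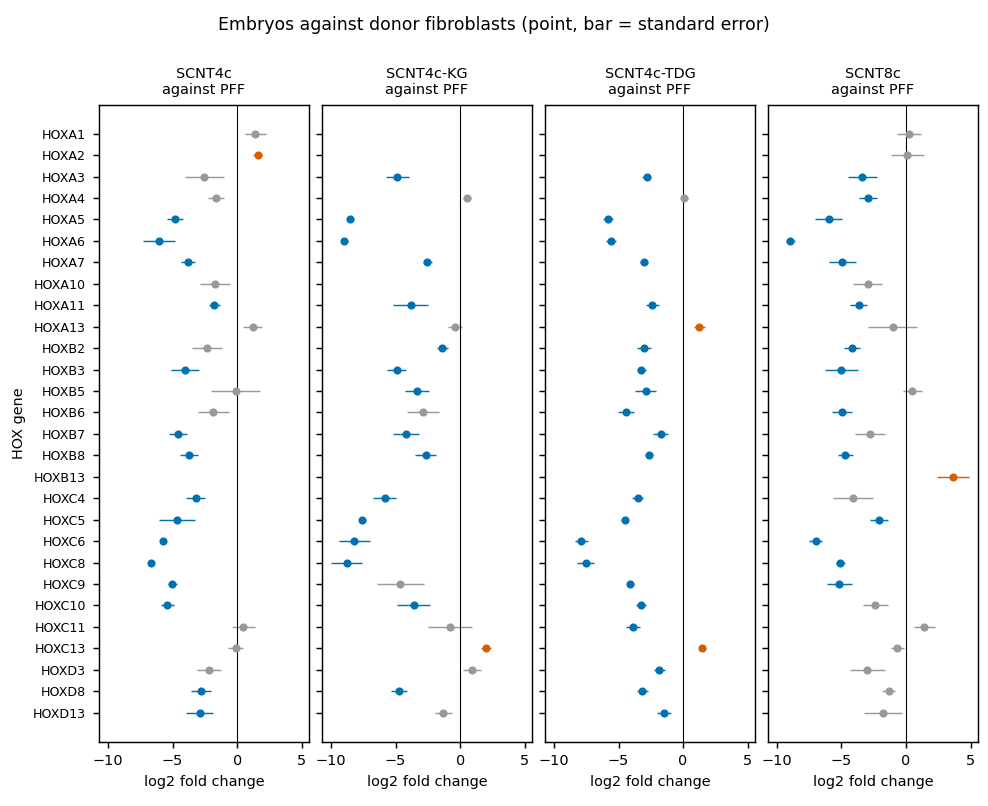
Log2 fold change of each tested HOX gene in the 4 embryo groups against PFF, with bars for 1 standard error; blue points were called lower, orange points higher and grey points neither. HOXC8 lies between -8.78 and -5.09 in the 4 panels, and HOXC13 is orange in SCNT4c-KG (2.03) and SCNT4c-TDG (1.49) only.

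A few members stood above the fibroblasts. HOXC13, which acts in hair and nail formation, stood at 403, 209 and 165 in SCNT4c-KG and at 166, 140 and 195 in SCNT4c-TDG, above every PFF library (48.9 to 73.9). It was higher than PFF by 2.03 ± 0.39 in SCNT4c-KG (SE; limma adjusted p = 0.0035) and by 1.49 ± 0.25 in SCNT4c-TDG (0.0010), on the log2 scale. In SCNT4c it stood at 128, 45.4 and 26.6 and in SCNT8c at 46.7, 51.5 and 19.0, both overlapping PFF (log2 -0.11 and -0.69), and the SCNT4c value was 0.50 with the same total in each library. HOXA13, the paralogue of HOXC13 that patterns the digits and the genital tract, stood at 92.0, 202 and 85.7 in SCNT4c-TDG, above the PFF range of 33.4 to 71.3 (log2 1.24 ± 0.43, limma adjusted p = 0.031). That call was lost without PFF replicate 1 (adjusted p = 0.071) or 3 (0.097), or without SCNT4c-TDG replicate 2 (0.084). In SCNT4c HOXA13 stood at 296, 115 and 41.5, and the difference to PFF did not pass (log2 1.19, limma adjusted p = 0.18).

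Other differences of this direction rested on few reads or on the scaling. HOXA2, which patterns the second pharyngeal arch, rose in SCNT4c from 7.33, 7.64 and 4.77 in PFF to 17.4, 31.5 and 17.4, by 1.58 ± 0.38 on the log2 scale (SE; limma adjusted p = 0.0080), and stood at -0.06 after quantile normalization. HOXB13, a gene of the tail end of the body, was at 0 in all PFF libraries and at 16.8, 50.7 and 1.06 in SCNT8c (log2 3.63, limma adjusted p = 0.032), and without any 1 of the PFF libraries its adjusted p was between 0.084 and 0.087, and without SCNT8c replicate 1 it was 0.0997. HOXA4 stood at 68.6, 55.8 and 99.7 in SCNT4c-KG and at 56.9, 58.3 and 41.3 in SCNT4c-TDG, around its PFF values of 45.2, 59.9 and 42.9, and it was at 28.4, 22.7 and 4.98 in SCNT4c. Its difference to PFF did not pass in SCNT4c-KG (log2 0.56, limma adjusted p = 0.14), but did with the same total in each library (log2 1.08, adjusted p = 0.023). HOXA4 was called lower than PFF in SCNT8c alone, at 5.60, 1.66 and 14.8. That call was lost in 2 of 15 alternatives (highest limma, edgeR or DESeq2 adjusted p = 0.072). In SCNT4c all HOXA4 libraries also lay below PFF, and the difference fell just short (log2 -1.63, limma adjusted p = 0.054).

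SCNT4c-KG was compared with SCNT4c to ask what the combined KDM4A and GSK126 treatment changed. Of 20 members tested, 1 was higher (HOXC13) and 1 was lower (HOXA2), where 17.6% of all features were called higher and 19.6% lower. In limma, 6 members had an unadjusted p under 0.05. No share of all features was computed at that limit, so nothing is read from this count or those of the comparisons below. HOXC13 stood at 403, 209 and 165 in SCNT4c-KG and at 128, 45.4 and 26.6 in SCNT4c. All treated libraries lay above all untreated ones, and the difference was 2.14 ± 0.63 on the log2 scale (SE; limma adjusted p = 0.015). The call was lost without SCNT4c library b (adjusted p = 0.0504) or c (0.071), or without SCNT4c-KG replicate 1 (0.069), and over the alternatives run the difference stayed between 1.65 and 2.76. HOXA2 fell from 17.4, 31.5 and 17.4 to 1.63, 0 and 0, that is from 22, 36 and 21 reads to 1, 0 and 0 (log2 -4.01 ± 1.33, limma adjusted p = 0.028). It was not called by edgeR (adjusted p = 0.079), with a pseudocount of 0.1 (0.063), or without SCNT4c-KG replicate 2 (0.076) or 3 (0.073), and without any 1 of the SCNT4c libraries its mean was below the filter.

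**Figure D5:**
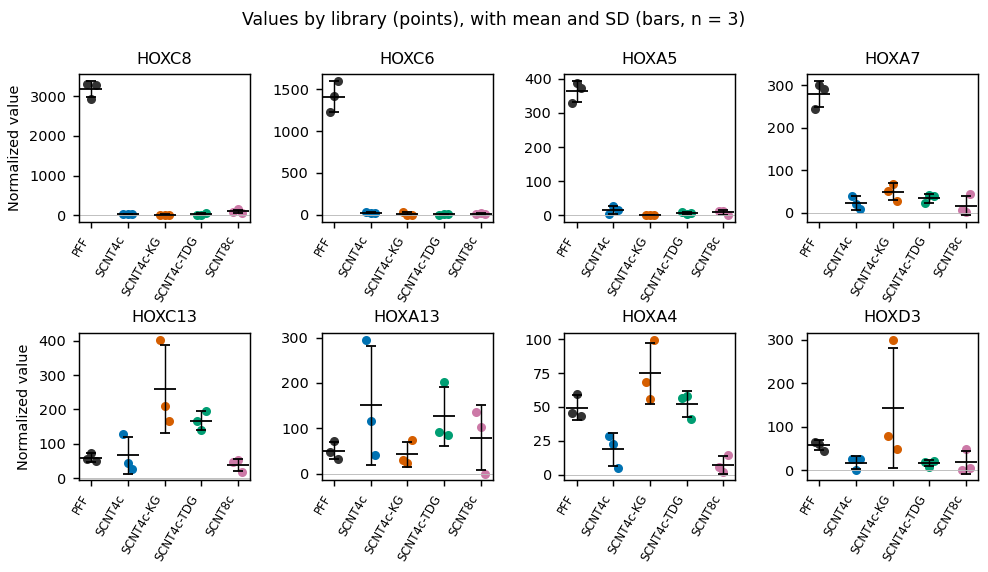
Normalized values of 8 HOX genes in each library (points), with the mean and SD of the 3 libraries of a group (bars). HOXC8, HOXC6, HOXA5 and HOXA7 are high in PFF alone, HOXC13 is highest in SCNT4c-KG (165 to 403), and HOXA13, HOXA4 and HOXD3 overlap PFF in several embryo groups.

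None of the leading donor genes that were tested was called in this comparison. HOXA5 and HOXA6 were at 0 in all SCNT4c-KG libraries. Their means over the embryo libraries (7.34 and 6.14) fell below the filter, so neither was tested between embryo groups. HOXC8 stood at 18.0, 19.0 and 0 in SCNT4c-KG, below each SCNT4c library (26.6 to 36.3), but the difference did not pass (log2 -2.13 ± 1.08, limma adjusted p = 0.13). HOXC6 (31.0, 2.54 and 0 against 33.9, 23.6 and 20.8) did not pass either (log2 -2.45, limma adjusted p = 0.11). HOXD3, an early gene of the neck level, stood at 78.4, 301 and 48.4 in SCNT4c-KG and at 26.8, 1.75 and 24.9 in SCNT4c (log2 3.07 ± 1.30, limma adjusted p = 0.074). Its groups did not overlap, and replicate 2 alone held 237 reads. HOXA4 at 55.8 to 99.7 also lay above SCNT4c (4.98 to 28.4), with a log2 difference of 2.19 ± 0.84 that fell just short (limma adjusted p = 0.051). HOXC11, a hind-body gene, showed how uneven the pools were, with 175, 2.54 and 1.42 in SCNT4c-KG.

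SCNT4c-TDG was compared with SCNT4c in the same fit. Its donor cells carried the vector and its embryos alone received doxycycline, so TDG induction, the donor line and doxycycline itself cannot be told apart. Of the 20 members, 0 were higher and 1 was lower (HOXC11), where 15.7% of all features were called higher and 17.6% lower, and 3 members had an unadjusted p under 0.05. HOXC11 fell from 54.4, 48.1 and 6.64 in SCNT4c to 0, 0 and 1.53 (log2 -4.33 ± 1.43, limma adjusted p = 0.029). That call was lost without SCNT4c library a (adjusted p = 0.10) or b (0.099), or without SCNT4c-TDG replicate 1 (0.085) or 2 (0.086), and also with a pseudocount of 10 (0.11) or no filter (0.051). HOXC13, at 166, 140 and 195, lay above all SCNT4c libraries (26.6 to 128), but the difference of 1.60 ± 0.63 did not pass (log2 scale, limma adjusted p = 0.061). It did pass after quantile normalization (adjusted p = 0.022), with the same total in each library (0.035), with DESeq2 (0.021) and in 4 further alternatives.

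Between the 2 treatments, 0 of 20 members were called, where 7.07% of features were called higher and 9.13% lower in SCNT4c-TDG. Of these members 2 had an unadjusted p under 0.05 in limma, namely HOXC11 and HOXC5, and edgeR and DESeq2 called 1 each. HOXC13 differed between the treated groups by -0.54 ± 0.63 on the log2 scale (SE; limma adjusted p = 0.61), and the 6 libraries overlapped.

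From the 4-cell to the 8-cell stage without treatment, 0 of 20 members were called, where 2.62% of features were called higher and 3.16% lower. These shares rest on single libraries, since the 1096 features called became 6133 without SCNT8c replicate 3, 31 to 234 without any other library, and 0 in a fit of both groups alone. Of these members 2 had an unadjusted p under 0.05 in limma, namely HOXB6 and HOXC10, edgeR called 0 and DESeq2 called 1. HOXC8 stood at 84.0, 148 and 63.4 in SCNT8c, above the 26.6 to 36.3 of SCNT4c, with a log2 difference of 1.56 ± 1.08 that did not pass (limma adjusted p = 0.34). HOXC10 stood at 37.3, 31.6 and 2.11 in SCNT8c against 0, 1.75 and 1.66 in SCNT4c, and without SCNT8c replicate 3 it was called higher (log2 4.19, limma adjusted p = 0.024).

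Genes that work with or on the HOX clusters were also read in these comparisons. Over all features, 33.7% to 39.8% were called higher and 36.8% to 40.3% lower than PFF in the 4 embryo groups, and the counts of each gene list against PFF stand beside these shares. Of 9 TALE cofactors, homeodomain proteins that bind DNA beside HOX proteins, 8 were tested against PFF, and 6 were lower in SCNT4c and SCNT4c-KG, 7 in SCNT4c-TDG and 5 in SCNT8c, with 0 higher. MEIS1 stood at 1953, 696 and 705 in SCNT4c, all below the 1973 to 2207 of PFF, a difference that did not pass (limma adjusted p = 0.053), and fell below SCNT4c in SCNT4c-KG (335, 151 and 152) and SCNT4c-TDG (147, 137 and 78.8). Of the 7 TALE genes tested between SCNT4c-KG and SCNT4c, MEIS1 was the 1 called lower and 0 were higher, where 19.6% of all features were lower and 17.6% higher. In SCNT4c-TDG against SCNT4c, 1 of 7 was lower, MEIS1, and 1 was higher, where the shares were 17.6% and 15.7%. The higher one was PBX3, which stood at 554, 298 and 252 in SCNT4c and 1226, 1323 and 918 in SCNT4c-TDG (log2 1.72, limma adjusted p = 0.0072). Of the inducers of HOX genes, 3 of 5 tested were lower and 2 higher than PFF in SCNT4c, and 3 of 4 lower and 0 higher in each other embryo group. The 2 higher ones were CDX2 (41.0, 40.2 and 1.66 in SCNT4c, 0 in PFF) and RARB (881 to 937 against 116 to 177). The retinoic acid receptors RARA and RARG and the ligand GDF11 were lower than PFF in all 4 embryo groups, and RARB was lower in SCNT4c-KG, SCNT4c-TDG and SCNT8c than in SCNT4c.

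The Polycomb genes did not move as 1 block. Of 11 PRC2 genes tested against PFF, 6 were higher and 3 lower in SCNT4c and in SCNT4c-KG, 5 and 1 in SCNT4c-TDG, and 4 and 2 in SCNT8c. EZH2 itself stood at 314 to 344 in SCNT4c and rose to 915, 1027 and 1245 in SCNT4c-KG (log2 1.66, limma adjusted p = 0.0032) and to 983 to 1208 in SCNT4c-TDG (log2 1.75, adjusted p = 0.0025). The drug acts on the enzyme, whose activity was not measured here. Of the 10 PRC2 genes tested between SCNT4c-KG and SCNT4c, 2 were higher and 3 lower, where 17.6% of all features were higher and 19.6% lower, the falls including PHF19 and MTF2, which bring PRC2 to CpG-rich DNA. Of 12 PRC1 genes, 1 was higher and 10 lower than PFF of 11 tested in SCNT4c, 3 and 7 of 12 in SCNT4c-KG, 3 and 7 of 11 in SCNT4c-TDG, and 1 and 8 of 11 in SCNT8c. Against SCNT4c, 4 of 11 PRC1 genes were higher in SCNT4c-KG and 1 was lower, against the same 17.6% and 19.6%. The latter was the E3 ligase RNF2, which fell from 6027 to 11900 to 1137 to 1237. On the Trithorax side, which opposes Polycomb, 2 of 6 were higher and 4 lower than PFF in SCNT4c, 1 and 2 in SCNT4c-KG, 1 and 3 in SCNT4c-TDG, and 2 and 2 in SCNT8c.

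Neighbours of the clusters and other genes of body position gave the setting. Of the genes next to the clusters, 22 were tested in SCNT4c against PFF, of which 4 were higher and 10 lower, 6 and 10 of 22 in SCNT4c-KG, 5 and 13 of 23 in SCNT4c-TDG, and 6 and 9 of 21 in SCNT8c, where 33.7% to 39.8% of all features were higher and 36.8% to 40.3% lower. Of 12 limb and body position factors outside the HOX family, 1 was higher and 8 lower of 11 tested in SCNT4c, 1 and 8 of 9 in SCNT4c-KG, 0 and 8 of 9 in SCNT4c-TDG, and 0 and 7 of 10 in SCNT8c, beside the same shares of all features. PITX1, a hindlimb factor, fell from 358 to 422 in PFF to 0 to 1.66 in SCNT4c, and stood at 108, 136 and 45.6 in SCNT4c-KG and 65.2, 54.5 and 57.4 in SCNT4c-TDG, above SCNT4c by 5.54 and 4.98 on the log2 scale (limma adjusted p = 1.6e-04 and 4.1e-04). Of the 7 position factors tested between SCNT4c-KG and SCNT4c, 2 were higher and 1 lower, with a median log2 difference of -0.69. In SCNT4c-TDG against SCNT4c, 2 were higher and 1 lower of 7, with a median of -1.83. Over all features, 17.6% were higher and 19.6% lower in SCNT4c-KG, and 15.7% and 17.6% in SCNT4c-TDG. EVX1 and EVX2, homeobox genes beside the clusters, summed to 0 in PFF and to at most 8.31 in an embryo library.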

How the data were processed

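RNA of PFF and of pooled SCNT embryos was made into SMARTer cDNA for paired-end sequencing. The authors used Trimmomatic 0.39 for trimming, STAR 2.5.3a for alignment against Sscrofa11.1, StringTie 2.1.2 for transcript assembly and HTSeq for counting, and retained reads that mapped to 1 place. The deposited values are a normalized signal, that is, counts divided by 1 factor for each library. Dividing by the value of 1 read gave back whole reads within a tolerance of 0.01. Of 43535 entries, 241 with a repeated ID were removed. Scaling decides the sign of small differences to PFF, and SMARTer amplification without molecular identifiers means that reads are not independent molecules.

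Tests were run on log2(value + 1), for features whose mean over the fitted libraries reached 10, with limma 3.58.1 (R 4.3.3), with an intensity trend and Benjamini-Hochberg adjustment over all features tested. Log2 fold changes on this scale understate changes of low genes. The 12 embryo libraries were fitted together, and each comparison with PFF was a fit of 6 libraries. A feature was called where the adjusted p was below 0.05 and the difference more than 2-fold. The study states in general that its experiments were repeated, but the labels do not tie these replicates to separate cultures, so p-values measure the spread between these libraries, which may be technical. With 3 against 3 libraries the smallest exact two-sided permutation p is 0.1. The pipeline was also run on simulated reads in which few features changed, a run that does not bear on the scaling between PFF and embryos. Exon lengths and sequences came from NCBI's annotation of Sscrofa11.1, in which all 36 members matched by symbol and chromosome, and a level per kb uses the union of annotated exons. The fold bound for a group without reads uses a floor of 3 reads over the group.

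Alternatives were a pseudocount of 0.1 or 10, a minimum mean of 50 or no filter, equal library totals, quantile normalization, edgeR 4.0.16 and DESeq2 1.42.0 on the recovered reads, no fold change limit, the sum of a gene with assembled transcripts at its locus, a fit of the compared groups alone, a replicate block, and each library left out in turn. For pairing, deviations of same-numbered libraries from their group means were correlated, with r from -0.057 to 0.189, and equal numbers were therefore taken as names only. Values per library are given, for some members in part of the groups only, for the 3 members highest per kb in PFF in each cluster. The same holds for the 10 members with the highest embryo means among those with a mean of at least 10 in an embryo group. Members called between embryo groups are treated likewise, and members without 3 reads in PFF are named. HOXA11, HOXC10, HOXB13 and genes outside the HOX family were added for the results that turn on them. The members and gene lists were chosen with earlier results of these data known. Some items are not reported here.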

Additional observations from a re-analysis of the deposited data

Results flagged for a closer look

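HOXC8 lay on opposite sides of SCNT4c in a pair of comparisons. Every SCNT8c library (84.0, 148 and 63.4; mean 98.5) lay above every SCNT4c library (26.6 to 36.3), and every SCNT4c-KG library (18.0, 19.0 and 0) lay below. Of all features tested, 9.24% lay in this way above SCNT4c in SCNT8c and 29.6% below it in SCNT4c-KG, beside 2 and 3 of 20 members. Both comparisons use the same SCNT4c libraries, neither HOXC8 difference passed on its own, and the difference between the comparisons was not tested.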

How the results depend on the processing

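The number of members called depended on the settings mainly between embryo groups, where it is small. In SCNT4c-KG against SCNT4c (2 called) it was 1 with a pseudocount of 0.1 or a minimum mean of 50, 4 with a pseudocount of 10 or in a fit of these groups alone, 6 with DESeq2, and 0 to 3 with 1 library left out (0 without SCNT4c library b, 1 without SCNT4c-KG replicate 3). In SCNT4c-TDG against SCNT4c (1 called) it was 0 without a filter, 2 with a pseudocount of 10, the same totals or DESeq2, 4 after quantile normalization or in a fit of these groups alone, and 0 to 2 with 1 library left out (0 without SCNT4c library b or SCNT4c-TDG replicate 2, 2 without SCNT4c library c). In SCNT8c against SCNT4c (0 called) it was 1 with DESeq2 and 0 to 1 with 1 library left out (1 without SCNT8c replicate 3). In SCNT4c-TDG against SCNT4c-KG (0 called) it was 1 with a pseudocount of 10, edgeR or DESeq2, 2 in a fit of these groups alone, and 0 with any library left out. With a minimum mean of 50, fewer members were tested, and 10 of 13 were called in SCNT4c against PFF (16 in the analysis above), 10 of 12 in SCNT4c-KG (17) and 12 of 13 in SCNT4c-TDG (23). With 1 library left out these counts ran from 13 to 18, 12 to 18 and 19 to 24, and from 12 to 18 in SCNT8c (15). HOXA2 in SCNT4c against PFF turned from 1.58 to -0.060 after quantile normalization. At a floor of 10 reads the median number of members detected fell from 14 to 9 in SCNT4c-KG and from 20 to 13 in SCNT8c. The median HOX sum moved from 7425 to 5189 with the same totals and 5315 after quantile normalization in PFF, and from 624 to 811 and 693 in SCNT4c-TDG. The cause of these differences was not tested, and depth limits members near the floor of 3 reads. With the replicate number as a block, the count was 1 in SCNT4c-TDG against SCNT4c-KG (HOXD3, 12 members tested in a fit of these groups), and 16, 18 and 22 in SCNT8c, SCNT4c-KG and SCNT4c-TDG against PFF; no block could be fitted for SCNT4c, whose libraries carry no usable numbers.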

Other observations

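Entries inside the HOX clusters that are not HOX genes followed more than 1 pattern. LOC110260669, opposite HOXC6, stood at 628, 614 and 845 in PFF and at 0 to 45.7 in the embryo libraries, and LOC106510294, opposite HOXC8 and HOXC9, at 315 to 332 in PFF and 0 to 56.8 in the embryos. LOC102160006 stood at 70.0 to 82.2 in PFF, at 917, 167 and 88.0 in SCNT4c and at 105, 506 and 54.9 in SCNT8c, and neither difference from PFF passed (log2 1.61 and 0.88, limma adjusted p = 0.12 and 0.35), against 0 to 43.1 in SCNT4c-KG and 9.20 to 23.8 in SCNT4c-TDG. It was lower than SCNT4c in both treated groups, with log2 differences of -4.87 and -4.03 (limma adjusted p = 0.0064 and 0.020). LOC110257186 stood at 38.1 to 48.4 in PFF and at 137, 161 and 286 in SCNT4c, with 22.9, 38.1 and 212 in SCNT4c-KG, 26.8, 44.5 and 26.0 in SCNT4c-TDG and 13.1, 47.4 and 14.8 in SCNT8c.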
